A study of Rattus norvegicus with 10 samples.

Results

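The enzymes that write and erase histone methylation, remove histone acetylation, and add or oxidize DNA methylation were examined in the fetal rat heart under maternal hyperglycemia. They were chosen by symbol from the deposited gene table: every symbol that begins with Kdm, Kmt, Hdac, Dnmt or Sirt followed by a digit, together with Tet1, Tet2, Tet3, Ezh1 and Ezh2. The sex-linked Kdm5c, Kdm5d and Kdm6a were left out by the same rule. Of 18025 genes in the table, 51 symbols matched and 49 had a mean of at least 0.1 FPKM (fragments mapped to a gene, scaled by its length and by the library total) over the 10 libraries. The rule itself uses symbols and levels and no difference between the groups, although it was set with earlier results of these data known. At the edge of the level filter, Dnmt3l (a catalytically inactive partner of the de novo methyltransferases) had a mean of 0.0720 FPKM and lay outside, and Kdm4dl2 had a mean of 0.00673 FPKM and also lay outside. Just inside lay Kdm4d with a mean of 0.122 FPKM, followed by Sirt4 with 0.962 FPKM.

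These proteins set the chemical marks that chromatin carries. Dnmt enzymes add a methyl group to cytosine and Tet dioxygenases oxidize it, Kmt and Ezh enzymes methylate histone lysines and Kdm enzymes take those groups off, and Hdac and Sirt enzymes remove acetyl and related acyl groups from histones and other proteins. Their cofactors come from metabolism, since methyl transfer uses S-adenosylmethionine, the Tet and most Kdm enzymes use oxygen, iron and alpha-ketoglutarate, and sirtuins use NAD. In the heart, class I Hdac enzymes act in the nucleus during growth and maturation, class IIa enzymes hold Mef2 factors in check, and Ezh2 represses genes of other lineages in the fetal myocardium.

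The groups were 5 control (CON) and 5 hyperglycemia (HG) heart libraries from wild-type Sprague-Dawley fetuses at E19.5, labelled as heart tissue. The dams were 3 months old, and HG dams received streptozotocin, a toxin of pancreatic beta cells, in citrate buffer on 3 consecutive days, while CON dams received the buffer. A dam counted as diabetic when its non-fasting glucose exceeded 16 mM at 7 days after injection. The sources differ on whether mating came before or after the dams were grouped, one legend speaks of isolated cardiomyocytes, and neither fetal sex nor the litter behind each library is given. The p-values here therefore measure the spread between these libraries, which may in part be shared within a litter. In whole tissue, fewer cells of a type and less RNA per cell cannot be told apart.

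The reads on genes, recovered from the FPKM values, numbered 16672876 to 19109844 per library, and 46 of the 49 genes had more than 100 reads in every library. Reads of Y-linked genes numbered 2030 to 2462 in CON replicates 1 and 4 and HG replicates 1 and 3 and at most 5 in the others, so that each group held 2 libraries of one kind and 3 of the other. Proliferation markers were higher in HG for 15 of 15 genes, with summed levels of 740 to 792 FPKM in CON and 941 to 1054 FPKM in HG. Cardiomyocyte markers were present at high level, 6 of 8 were lower and 1 was higher, and their sum was 26917 to 28219 FPKM in CON and 22684 to 26673 FPKM in HG. Red cell precursor markers were lower for 5 of 6 genes, with sums of 7008 to 12558 FPKM in CON and 5173 to 7258 FPKM in HG. These counts stand beside 28.4% higher and 11.8% lower among all genes tested, at an adjusted p under 0.05. With median-of-ratios factors, a scaling described below, 9 of 15 proliferation markers were higher (15.7% of all genes). Under that scaling 7 of 8 cardiomyocyte and 6 of 6 red cell precursor markers were lower (17.5% of all genes). The part of these shifts in the results on the modifying enzymes was not tested.

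In the hearts of HG fetuses, 17 of the 49 genes were higher and 3 were lower at an adjusted p under 0.05 (limma on log2(FPKM + 0.1), adjusted over all 14542 genes tested). The higher genes were the maintenance methyltransferase Dnmt1, the writers Ezh2 and Kmt2b, and the Kmt2 family member Kmt2e. Also higher were the demethylases Kdm1a, Kdm2a, Kdm3a, Kdm3b, Kdm4a, Kdm5a, Kdm5b and Kdm6b. The rest were the class I deacetylases Hdac1, Hdac2, Hdac3 and Hdac8, and the nuclear sirtuin Sirt6. The lower genes were Hdac5, Sirt2 and Sirt5. These were 34.7% and 6.12% of the 49, beside 28.4% higher and 11.8% lower among all genes tested. The median log2 fold change (HG minus CON, called log2 change from here on) was 0.14 over the 49 and 0.09 over all genes.

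The split depended on how the libraries were scaled. With median-of-ratios factors, which moved the median of all genes to 0.01, 9 of the 49 were higher and 6 lower, beside 15.7% and 17.5% of all genes. All 9 were among the 17 and included Dnmt1, Hdac1, Hdac2 and Hdac8, while the 6 were the earlier 3 together with Ezh1, Kmt5a and Kdm8. The median over the 49 was then 0.05. None of the 49 met the study's threshold of an adjusted p under 0.05 with more than a 2-fold change, a threshold that 1.94% of all genes met in limma, and the count was also 0 at an unadjusted p under 0.05 with that fold, and 0 with limma-voom on the recovered reads. The changes were small, and the largest among the called genes was 0.62 on the log2 scale, for Hdac8.

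Every HG library was above every CON library for 12 of the 49 genes and below for 1, beside 19.3% and 8.12% of all genes tested. The 12 were Dnmt1, Kdm1a, Kdm2a, Kdm3a, Kdm3b, Kdm4a, Kdm5a, Kdm5b, Hdac1, Hdac2, Hdac3 and Hdac8, and the 1 was Sirt5. The plot of log2 changes by role shows the class I deacetylases and many demethylases to the right of the line at the median of all genes, and the class IIa enzymes and sirtuins on either side of it.

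**Figure D1:**
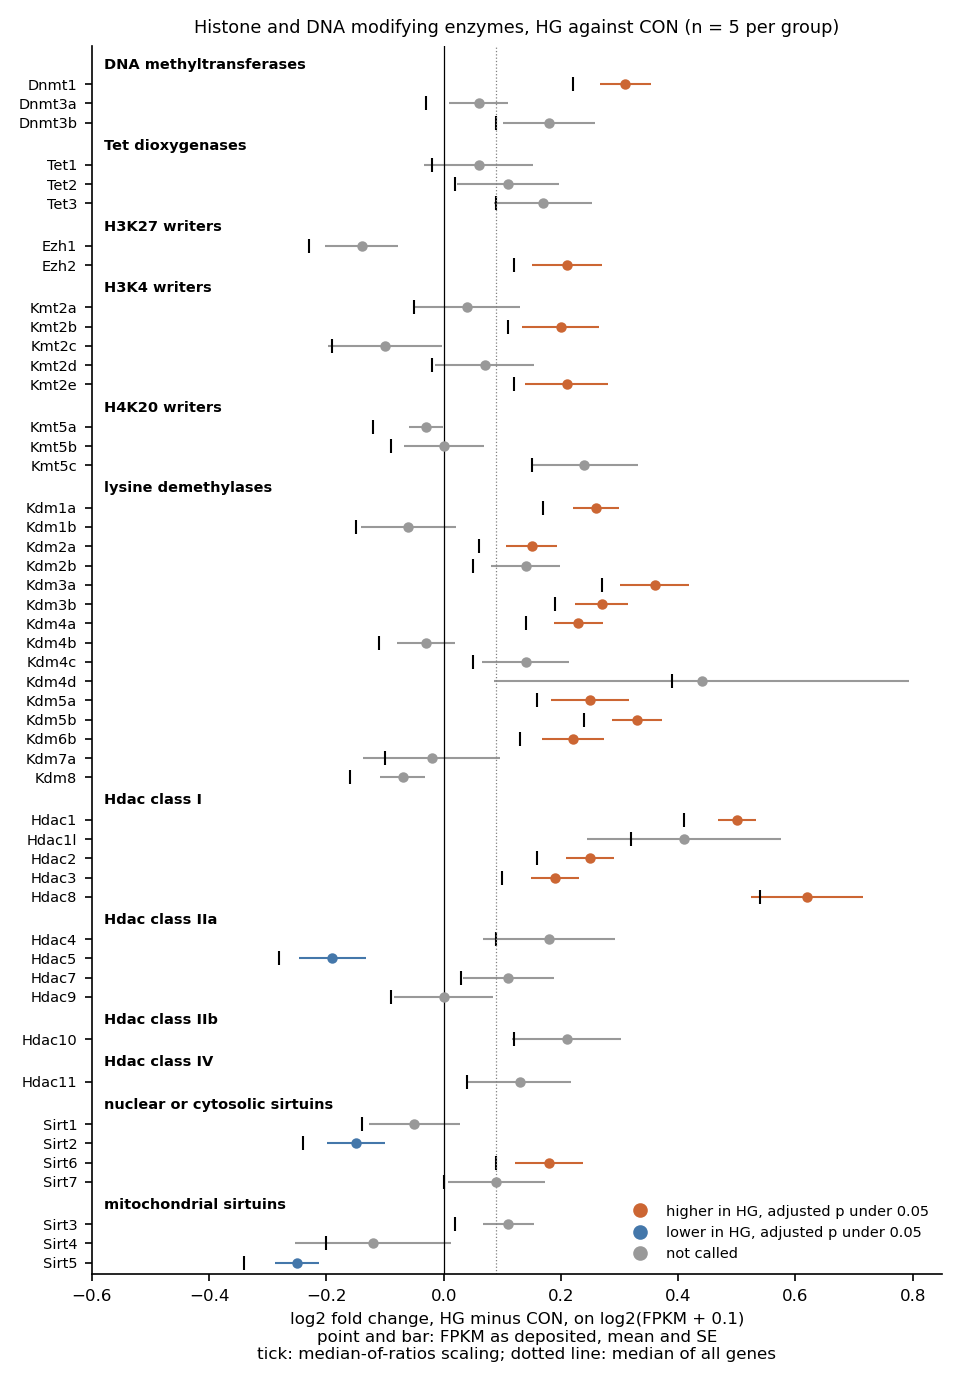
Log2 fold change (HG minus CON, on log2(FPKM + 0.1)) of the 49 genes grouped by role, with the limma standard error, n = 5 per group. Orange points were higher and blue points lower at an adjusted p under 0.05, grey points were not called, black ticks give the value with median-of-ratios factors, and the dotted line is the median of all genes at 0.09. Hdac8 (0.62) and Hdac1 (0.50) lie farthest right among the called genes and Sirt5 (-0.25) farthest left.

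Levels per gene length spanned a wide range. Hdac2 was the most abundant of the 49 in both groups, with 68.9 ± 4.20 FPKM among CON libraries and 81.8 ± 0.527 FPKM among HG libraries (mean ± SD, n = 5). In CON it was followed by Sirt5, Kmt5a and Hdac1, which ranked 2, 3 and 4. In HG the order was Hdac1, Kmt5a and Sirt5 at ranks 2, 3 and 4. Hdac1 held rank 4 in each of the 5 CON libraries and rank 2 in each of the 5 HG libraries. It reached 63.9% to 71.7% of the Hdac2 level in CON and 78.0% to 82.8% in HG. The lowest ranks in both groups were those of Hdac4, Sirt4 and Kdm4d, and Kdm4d, a testis-expressed demethylase, had between 0 and 10 reads per library, which is too few to resolve a difference.

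**Figure D2:**
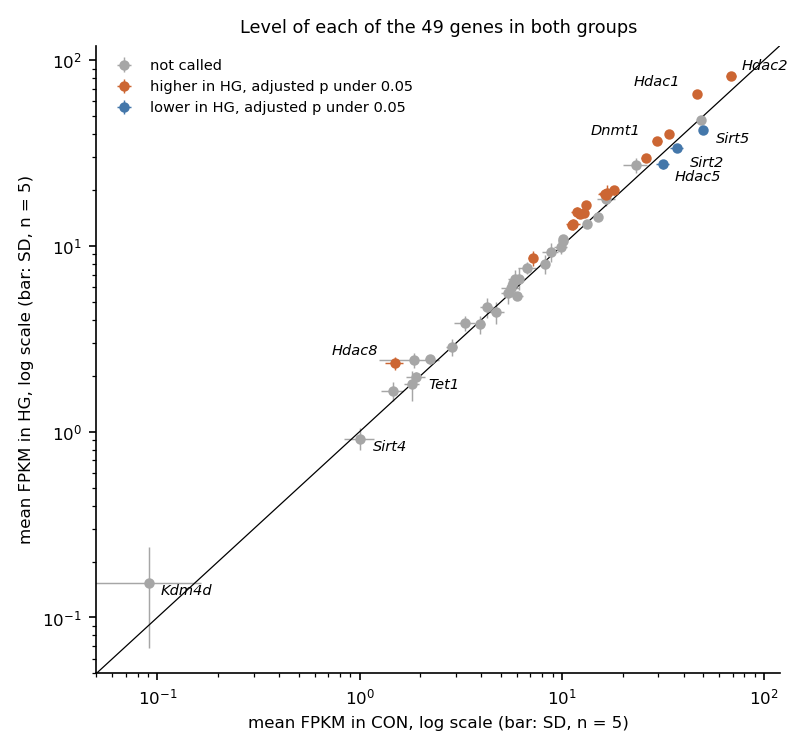
Mean FPKM of each of the 49 genes in CON (x axis) and HG (y axis), both on log scales, with the SD over 5 libraries as bars and the line of equality drawn. Hdac2, Hdac1 and Dnmt1 lie above the line at the high end, Sirt5, Sirt2 and Hdac5 below it, and Hdac8 above it among the low genes.

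The class I deacetylases (Hdac1, Hdac2, Hdac3, Hdac8) are nuclear enzymes, of which Hdac1 and Hdac2 form the catalytic core of the Sin3, NuRD and CoREST corepressors, and Hdac3 that of the NCoR and SMRT complexes. All 4 were higher in HG, and the fifth gene of the class by symbol, Hdac1l, was not called. These 4 of 5 stand beside 28.4% higher among all genes tested. With median-of-ratios factors 3 of the 5 were higher, beside 15.7% of all genes. Hdac1 had 47.5, 47.0, 45.9, 46.9 and 44.8 FPKM in CON replicates 1 to 5 and 63.5, 67.6, 67.2, 63.7 and 65.5 FPKM in HG replicates 1 to 5. The groups were far apart compared with the spread within either, and the mean was 41.2% higher in HG. Its log2 change was 0.50 (SE 0.0328, adjusted p = 1.09e-06), and 0.41 (adjusted p = 3.86e-06) with median-of-ratios factors.

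Hdac8, an X-linked class I enzyme that deacetylates the cohesin subunit Smc3, had 1.28, 1.61, 1.45, 1.68 and 1.44 FPKM in CON and 2.42, 2.27, 2.35, 2.08 and 2.59 FPKM in HG. Every HG library was above every CON library. CON replicates 1 and 4, which held Y-linked reads, were the lowest and the highest of the CON libraries, and HG replicates 1 and 3, which held them too, lay within the range of the other HG libraries. The log2 change was 0.62 (SE 0.0950, adjusted p = 0.000332). Levels were low, with at least 124 reads in each library. Hdac2 had a log2 change of 0.25 (SE 0.0411, adjusted p = 0.000551). Hdac3 rose from 26.0 ± 1.28 to 29.7 ± 0.817 FPKM (log2 change 0.19, adjusted p = 0.00300), a call that was lost with median-of-ratios factors (0.10, adjusted p = 0.0707). Hdac1l, a near copy of Hdac1 whose reads may not be assigned with certainty, had 1.86 ± 0.609 FPKM in CON and 2.43 ± 0.230 FPKM in HG (log2 change 0.41, adjusted p = 0.0663). Its CON replicate 2 was higher than the other CON libraries, and without that library the adjusted p was 0.00200 at a log2 change of 0.58.

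Promoter sequence was taken from the RefSeq table for build GRCr8, which is not the mRatBN7.2 build of the files, and 41 of the 49 genes matched, with 54 annotated windows. Each window covers 250 bases before the annotated start and the first 30 bases after it, read 5′ to 3′ on the strand of the gene. Capitals mark 3 kinds of motif found by a letter search on both strands: the GC box GGGCGG, the CCAAT box, and the E2F-type elements TTTCCCGC, TTTCGCGC, TTTGCCGC or TTTGGCGC. Neighbouring matches may overlap. Some windows of the same gene, such as those of Kmt2c and Tet3, are nearly the same sequence and were counted separately. A GC box was present in 64.8% of the windows of these genes, in 58.1% of 12485 windows of all genes tested and in 32.2% of all 33469 windows in the table. A CCAAT box was present in 42.6%, 36.0% and 36.2% of them. An E2F-type element was present in 3 of the 54 windows (5.56%), those of Ezh2, Kmt5c and Sirt5, beside 3.56% and 2.00%. The windows held a median of 20.5 CpG dinucleotides, beside 18.0 for all genes tested.

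The Hdac1 and Hdac8 windows are shown because these genes had the largest called changes yet differ in base composition. The Hdac1 window held 27 CpG dinucleotides and 5 GC box matches, whereas the Hdac8 window held 3 CpG dinucleotides and none of the motifs.
Hdac1, chr5:147165358-147165637, minus strand: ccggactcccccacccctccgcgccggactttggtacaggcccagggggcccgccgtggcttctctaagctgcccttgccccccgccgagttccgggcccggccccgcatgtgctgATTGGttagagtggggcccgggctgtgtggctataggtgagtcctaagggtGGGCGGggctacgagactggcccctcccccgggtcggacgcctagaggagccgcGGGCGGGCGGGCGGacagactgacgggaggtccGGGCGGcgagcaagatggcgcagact
Hdac8, chrX:71632836-71633115, minus strand: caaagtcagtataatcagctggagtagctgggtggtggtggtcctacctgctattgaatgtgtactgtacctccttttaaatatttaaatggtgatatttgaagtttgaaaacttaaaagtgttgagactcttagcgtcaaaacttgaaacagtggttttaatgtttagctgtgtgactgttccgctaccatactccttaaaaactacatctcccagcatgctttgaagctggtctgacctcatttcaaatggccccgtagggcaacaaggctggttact

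Class IIa deacetylases (Hdac4, Hdac5, Hdac7, Hdac9) move between nucleus and cytoplasm on 14-3-3 adaptors and bind Mef2 factors. Of the 4, Hdac5 was lower and the others were not called. Hdac5 had 28.2, 32.2, 34.0, 30.2 and 32.8 FPKM in CON and 28.0, 27.6, 29.2, 24.9 and 27.9 FPKM in HG. The groups overlapped through CON replicate 1, and the log2 change was -0.19 (SE 0.0571, adjusted p = 0.0174), or -0.28 (adjusted p = 0.00176) with median-of-ratios factors. Hdac4 had 1.17, 1.49, 1.61, 1.45 and 1.59 FPKM in CON and 1.67, 1.58, 1.75, 1.39 and 1.92 FPKM in HG. These ranges overlapped (log2 change 0.18, adjusted p = 0.239). Hdac7, which is prominent in endothelium, was at 16.6 ± 1.68 and 18.0 ± 1.59 FPKM, and Hdac9 at 2.85 ± 0.177 and 2.85 ± 0.300 FPKM.

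Because a ratio of 2 levels in the same library does not depend on how the libraries are scaled, 6 ratios were tested by a two-sided exact permutation test, with Benjamini-Hochberg adjustment over the 6. The smallest p this design allows is 0.00794 before adjustment. The summed class IIa level (Hdac4, Hdac5, Hdac7 and Hdac9) relative to the summed class I level (Hdac1, Hdac2, Hdac3 and Hdac8) was lower in every HG library than in any CON library. It was 0.337 to 0.413 in CON and 0.250 to 0.295 in HG, a difference of -0.40 on the log2 scale (exact p = 0.00794, adjusted p = 0.0159). This ratio fell with the rise of Hdac1 and Hdac2 and the fall of Hdac5, so that it restates those values on a scale-free footing rather than adding a separate measurement.

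Hdac10 of class IIb, a polyamine deacetylase, had 2.86, 3.32, 2.99, 3.79 and 3.60 FPKM in CON and 3.72, 4.34, 4.03, 3.45 and 3.60 FPKM in HG (log2 change 0.21, adjusted p = 0.0975). Hdac11 of class IV, a defatty-acylase, had 4.78, 4.18, 4.08, 4.11 and 4.11 FPKM in CON and 4.04, 5.01, 4.97, 4.10 and 5.33 FPKM in HG (log2 change 0.13, adjusted p = 0.257). In neither did the groups separate. Hdac6 was not among the 51 symbols that matched the rule and was not analysed here.

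**Figure D3:**
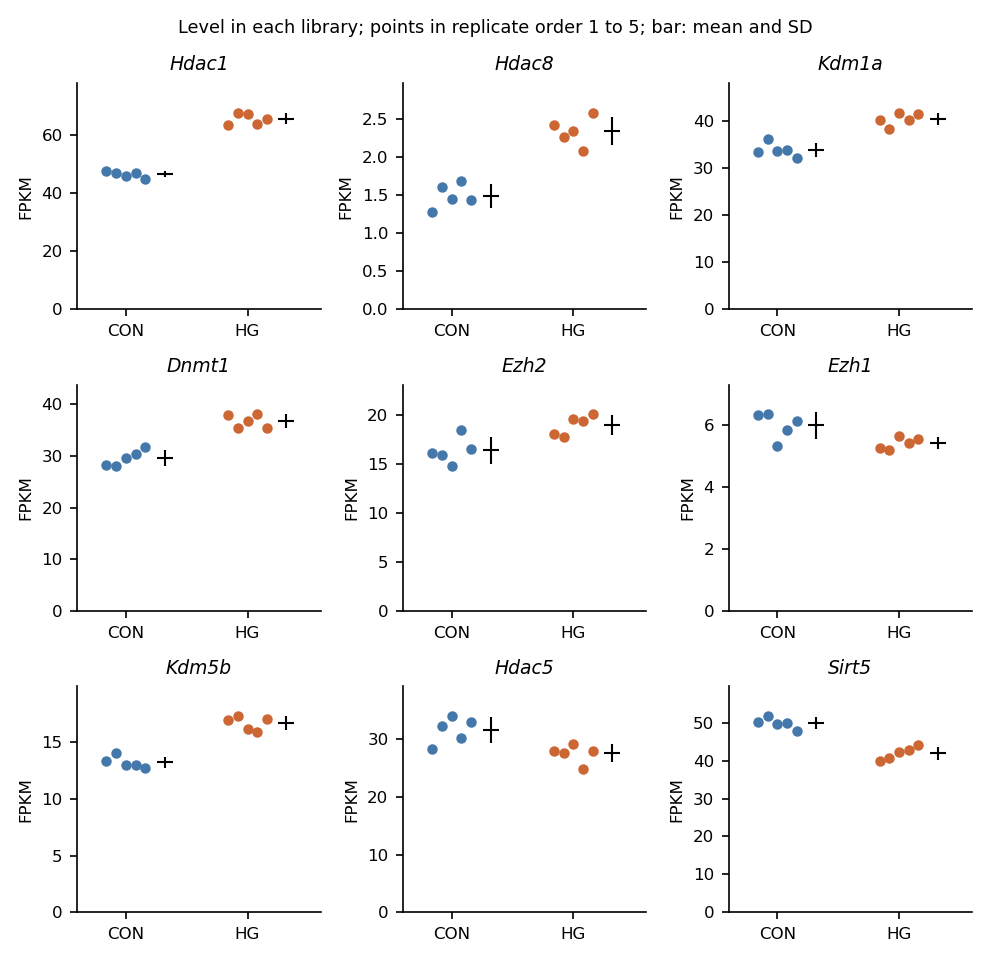
FPKM of 9 of the genes in each library (y axes start at 0), with points in replicate order 1 to 5 and the group mean with SD as a bar. The CON and HG points do not overlap for Hdac1, Hdac8, Kdm1a, Dnmt1, Kdm5b and Sirt5, and they overlap for Ezh2, Ezh1 and Hdac5.

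Among the DNA methyltransferases, Dnmt1, which copies methylation onto the new strand after replication, was higher in HG, and the de novo enzymes Dnmt3a and Dnmt3b were not called. Dnmt1 had 28.2, 28.0, 29.6, 30.4 and 31.8 FPKM in CON and 38.0, 35.4, 36.8, 38.1 and 35.5 FPKM in HG. The groups did not overlap, and the log2 change was 0.31 (SE 0.0433, adjusted p = 0.000167), or 0.22 (adjusted p = 0.00290) with median-of-ratios factors. Proliferation markers, which were higher in HG, are listed above, and their part in the Dnmt1 difference was not tested.

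Dnmt3a had 9.53, 10.2, 10.1, 10.5 and 10.4 FPKM in CON and 10.2, 10.5, 10.9, 9.97 and 11.4 FPKM in HG. Dnmt3b had 6.14, 6.63, 6.04, 7.36 and 7.63 FPKM in CON and 8.17, 7.22, 7.42, 7.04 and 8.34 FPKM in HG. Both overlapped between the groups, with log2 changes of 0.06 (adjusted p = 0.389) and 0.18 (adjusted p = 0.0929). Without CON replicate 5 the adjusted p of Dnmt3b was 0.0431. The ratio of Dnmt3a to Dnmt3b differed by -0.12 on the log2 scale between HG and CON (exact p = 0.119, adjusted p = 0.179), within the overlap of the groups.

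The Tet dioxygenases, which start the removal of DNA methylation by oxidizing the methyl group, were not called. Tet1 had 1.94, 2.11, 1.63, 2.07 and 1.74 FPKM in CON and 1.80, 2.00, 1.99, 1.96 and 2.16 FPKM in HG. Tet2 had 6.03, 6.21, 5.65, 6.81 and 6.13 FPKM in CON and 6.38, 6.53, 6.94, 5.55 and 7.99 FPKM in HG. For both, the 95% confidence interval of the log2 change included 0, and that of Tet1 ran from -0.14 to 0.27.

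Tet3 had 5.51, 5.98, 5.53, 6.51 and 5.71 FPKM in CON and 6.69, 6.50, 7.24, 5.43 and 7.31 FPKM in HG (log2 change 0.17, adjusted p = 0.116). HG replicate 4 was the lowest of all 10 libraries, and without it the adjusted p was 0.0157 at a log2 change of 0.24. The summed Tet level was 0.273 to 0.319 of the summed Dnmt level in CON and 0.235 to 0.316 in HG (log2 difference -0.11, exact p = 0.254, adjusted p = 0.305). That ratio overlapped between the groups.

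Of the H3K27 methyltransferases, Ezh2 was higher in HG and Ezh1 was not called. Ezh2 is the strong catalytic subunit of PRC2 (Polycomb repressive complex 2) in dividing cells, and Ezh1 is its weaker counterpart that persists in cells that have left the cycle. Ezh2 had 16.1, 16.0, 14.8, 18.5 and 16.6 FPKM in CON and 18.1, 17.7, 19.6, 19.4 and 20.1 FPKM in HG. CON replicate 4 lay within the HG range, and the log2 change was 0.21 (SE 0.0598, adjusted p = 0.0135), or 0.12 (adjusted p = 0.119) with median-of-ratios factors. Ezh1 had 6.32, 6.35, 5.30, 5.84 and 6.12 FPKM in CON and 5.25, 5.20, 5.64, 5.43 and 5.53 FPKM in HG. Its log2 change was -0.14 (adjusted p = 0.0868), and it passed with median-of-ratios factors (-0.23, adjusted p = 0.0113) and without CON replicate 3 (-0.18, adjusted p = 0.0282).

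The ratio of Ezh2 to Ezh1 separated the groups without regard to scaling. It was 2.51 to 3.17 in CON and 3.41 to 3.64 in HG, a difference of 0.36 on the log2 scale (exact p = 0.00794, adjusted p = 0.0159). Over the fits that left out each library in turn, the difference ranged from 0.33 to 0.41. Against the H3K27 demethylase Kdm6b no such separation was seen. The log2 ratio of Ezh2 to Kdm6b averaged 0.55 ± 0.111 in CON and 0.55 ± 0.135 in HG (SD, n = 5, exact p = 0.960). Kdm6b itself, which takes methyl groups off H3K27, rose from 11.2 ± 0.553 to 13.0 ± 0.736 FPKM (log2 change 0.22, adjusted p = 0.00648), and this call was lost with median-of-ratios factors (0.13, adjusted p = 0.0733).

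The Ezh2 window is shown because it is one of the 3 with an E2F-type element, which lies close to the start together with CCAAT boxes.
Ezh2, chr4:77687154-77687433, minus strand: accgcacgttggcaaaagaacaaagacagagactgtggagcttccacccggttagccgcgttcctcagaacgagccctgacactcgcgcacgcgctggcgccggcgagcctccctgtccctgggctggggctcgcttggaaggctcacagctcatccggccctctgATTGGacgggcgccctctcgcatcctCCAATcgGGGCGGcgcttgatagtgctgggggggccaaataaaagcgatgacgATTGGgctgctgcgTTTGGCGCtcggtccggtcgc

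**Figure D4:**
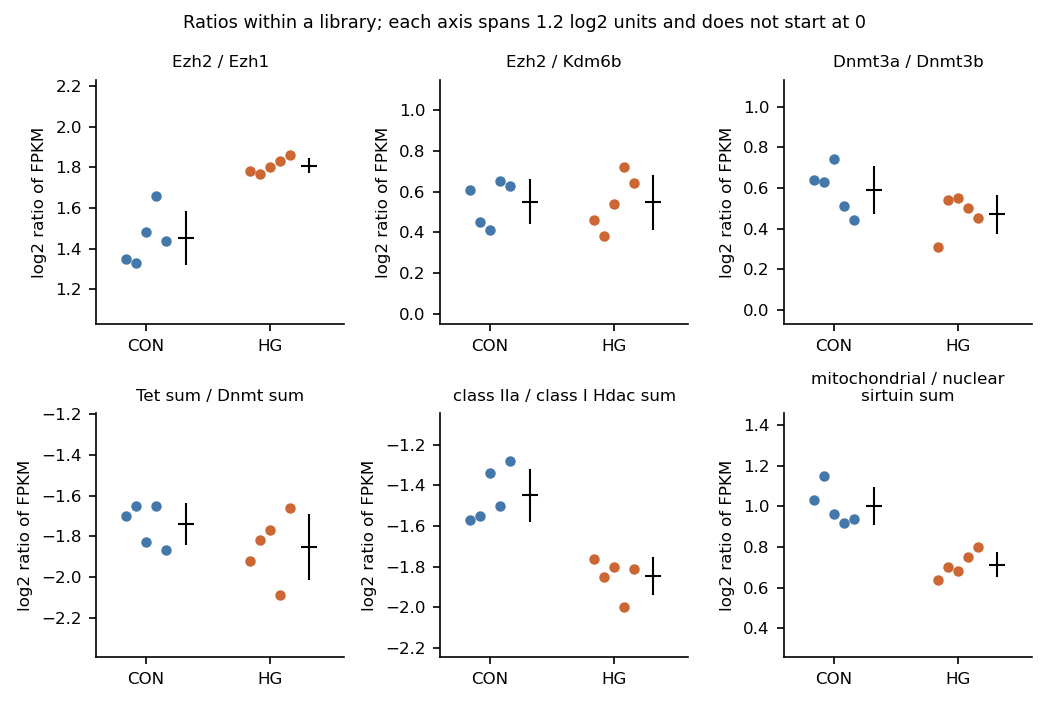
Log2 ratio of FPKM within each library for the 6 ratios (points in replicate order, bar for the group mean and SD, n = 5 per group), with axes of equal span that do not start at 0. The groups do not overlap for Ezh2 to Ezh1, for class IIa to class I Hdac and for mitochondrial to nuclear sirtuins, and they overlap for the other ratios.

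Among the Kmt2 family, whose members other than Kmt2e methylate H3K4 at promoters and enhancers, Kmt2b and Kmt2e were higher in HG by a narrow margin. Kmt2b had 11.0, 10.02, 11.8, 12.2 and 12.1 FPKM in CON and 13.9, 12.2, 13.9, 12.1 and 13.3 FPKM in HG. The groups met at 12.1 to 12.2 FPKM, and the log2 change was 0.20 (SE 0.0658, adjusted p = 0.0323). The call was lost with median-of-ratios factors (adjusted p = 0.225) and when CON replicate 1 or 2 or HG replicate 1, 3 or 5 was left out (adjusted p = 0.0594 to 0.0790). Kmt2e, which carries a SET domain without known methyltransferase activity, had 15.7, 18.2, 15.5, 18.2 and 15.9 FPKM in CON and 17.9, 20.1, 19.6, 17.4 and 21.8 FPKM in HG. The groups overlapped (log2 change 0.21, SE 0.0704, adjusted p = 0.0314), and the call was lost with median-of-ratios factors (adjusted p = 0.175) and without CON replicate 1, 3 or 5 or HG replicate 2, 3 or 5 (adjusted p = 0.0624 to 0.0746). Kmt2a, Kmt2c and Kmt2d were not called, with log2 changes of 0.04, -0.10 and 0.07.

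The H4K20 writers were not called in the main fit of these data as deposited. Kmt5c, which adds the further methyl groups at constitutive heterochromatin, had 22.0, 21.4, 19.7, 26.1 and 27.2 FPKM in CON and 27.1, 24.7, 29.3, 25.0 and 30.5 FPKM in HG. The groups overlapped through CON replicates 4 and 5 (log2 change 0.24, adjusted p = 0.0569), and the adjusted p was 0.0356 without CON replicate 4, 0.0198 without CON replicate 5 and 0.0453 without HG replicate 2. With all libraries it was 0.0365 with limma-voom on the recovered reads and 0.0497 with a filter at a mean of 1 FPKM. Kmt5a, the monomethylase that acts in mitosis, had 49.1, 50.0, 47.4, 48.9 and 48.0 FPKM in CON and 48.7, 47.2, 47.9, 47.3 and 47.5 FPKM in HG. Its standard error of 0.0296 was the smallest of the 49, the log2 change was -0.03 (95% confidence interval -0.09 to 0.04), and with median-of-ratios factors it was lower in HG (-0.12, adjusted p = 0.0131). Kmt5b averaged 9.90 ± 0.731 FPKM in CON hearts and 9.90 ± 0.827 FPKM in HG hearts.

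Of the 15 lysine demethylases, 8 were higher and none was lower (53.3% higher, beside 28.4% higher and 11.8% lower among all genes tested). With median-of-ratios factors 5 were higher and 1 was lower (33.3% and 6.67%, beside 15.7% and 17.5%). Kdm5b, which removes methyl groups from H3K4, had 13.3, 14.0, 13.0, 13.0 and 12.7 FPKM in CON and 16.9, 17.3, 16.2, 15.9 and 17.0 FPKM in HG. No library of one group entered the range of the other (log2 change 0.33, SE 0.0429, adjusted p = 9.93e-05). Kdm1a, the flavin-dependent H3K4 demethylase of the CoREST complex, had 33.4, 36.0, 33.6, 33.7 and 32.1 FPKM in CON and 40.2, 38.2, 41.7, 40.1 and 41.3 FPKM in HG. Here too the groups were apart (log2 change 0.26, SE 0.0390, adjusted p = 0.000326). Both kept their call with median-of-ratios factors, at 0.24 (adjusted p = 0.000970) and 0.17 (adjusted p = 0.00530).

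The H3K9 demethylases Kdm3a and Kdm3b and the H3K9 and H3K36 demethylase Kdm4a were also higher under both scalings. Kdm3a, whose gene is a known hypoxia target, rose from 11.9 ± 0.752 to 15.2 ± 1.01 FPKM (log2 change 0.36, adjusted p = 0.000496). Kdm3b rose from 12.3 ± 0.478 to 14.9 ± 0.646 FPKM (0.27, adjusted p = 0.000538), and Kdm4a from 12.9 ± 0.369 to 15.1 ± 0.591 FPKM (0.23, adjusted p = 0.00102). The H3K4 demethylase Kdm5a (0.25, adjusted p = 0.0102) and the H3K36 demethylase Kdm2a (0.15, adjusted p = 0.0186) were higher as deposited and not with median-of-ratios factors (adjusted p = 0.0597 and 0.284).

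The other demethylases were not called as deposited. Kdm4b had a log2 change of -0.03 and Kdm4c of 0.14, with neither called. Kdm1b, the paralog of Kdm1a, had a log2 change of -0.06, Kdm2b of 0.14 and Kdm7a of -0.02, and these were not called. Kdm2b passed without CON replicate 4 (adjusted p = 0.0409) and with limma-voom on the recovered reads (adjusted p = 0.0377). Kdm8 was at 15.1 ± 0.580 and 14.4 ± 0.118 FPKM (log2 change -0.07, adjusted p = 0.161) and lower with median-of-ratios factors (-0.16, adjusted p = 0.00922). Whether the paralogs of a pair differed in their change was not tested.

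Among the sirtuins outside the mitochondrion, Sirt6 was higher and Sirt2 lower, and Sirt1 and Sirt7 were not called. Sirt6, a chromatin-bound deacylase, had 16.0, 14.9, 17.3, 17.7 and 17.1 FPKM in CON and 20.1, 19.7, 19.0, 17.9 and 17.4 FPKM in HG. The groups overlapped through HG replicate 5 (log2 change 0.18, SE 0.0584, adjusted p = 0.0271), and the call was lost with median-of-ratios factors (adjusted p = 0.275) and without CON replicate 1 or 2 or HG replicate 1, 2 or 3 (adjusted p = 0.0556 to 0.0654). Sirt2, a mostly cytosolic tubulin deacetylase, had 40.4, 35.7, 39.7, 33.9 and 36.4 FPKM in CON and 32.9, 34.0, 33.7, 34.7 and 32.4 FPKM in HG. These overlapped through CON replicate 4 (log2 change -0.15, SE 0.0494, adjusted p = 0.0325). Without CON replicate 1 or 3 or HG replicate 1, 3 or 5 the adjusted p of Sirt2 was 0.0572 to 0.0817, and with median-of-ratios factors it was 0.00502. Sirt1 averaged 8.26 ± 0.430 FPKM in CON hearts and 7.98 ± 0.928 FPKM in HG hearts.

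Of the mitochondrial sirtuins, Sirt5, which removes succinyl, malonyl and glutaryl groups from metabolic enzymes, was lower in HG. It had 50.2, 51.9, 49.5, 50.0 and 47.7 FPKM in CON and 39.8, 40.6, 42.3, 42.7 and 44.1 FPKM in HG. Every HG library was below every CON library, and the mean fell by 16.0% (log2 change -0.25, SE 0.0374, adjusted p = 0.000281), or by 0.34 on the log2 scale with median-of-ratios factors (adjusted p = 2.56e-05). Sirt3, the main mitochondrial deacetylase, had 9.74, 10.3, 10.2, 9.81 and 10.4 FPKM in CON and 11.0, 10.3, 11.3, 11.0 and 10.9 FPKM in HG. It was not called (log2 change 0.11, adjusted p = 0.0605). Sirt3 passed without HG replicate 2 (adjusted p = 0.0374) and with a weight for each library in limma (adjusted p = 0.0453). Sirt4 was at 1.01 ± 0.171 and 0.918 ± 0.124 FPKM. Cardiomyocytes are rich in mitochondria, and the cardiomyocyte markers above were lower in HG as well, but their part in the Sirt5 difference was not tested.

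The summed mitochondrial sirtuins (Sirt3, Sirt4, Sirt5) were 1.90 to 2.22 times the summed nuclear sirtuins (Sirt1, Sirt6, Sirt7) in CON and 1.56 to 1.74 times in HG. This difference of -0.29 on the log2 scale separated the groups (exact p = 0.00794, adjusted p = 0.0159). Sirt5, with a log2 change of -0.25, makes up most of the numerator, but the difference does not rest on it alone. In the denominator Sirt6 (log2 change 0.18) and Sirt7 (0.09) lowered the ratio, while Sirt1 (-0.05) raised it. In the numerator Sirt4 (-0.12) lowered it and Sirt3 (0.11) raised it. Sirt2, which was lower in HG, is in neither sum. The share of each gene in the difference was not tested. With the mean of the members' log2 values in place of sums the difference was -0.16 (adjusted p = 0.0952). The Sirt5 window is shown as that of the only one of the 49 that fell without overlap, and it carries an E2F-type element next to a CCAAT box.
Sirt5, chr17:21543027-21543306, minus strand: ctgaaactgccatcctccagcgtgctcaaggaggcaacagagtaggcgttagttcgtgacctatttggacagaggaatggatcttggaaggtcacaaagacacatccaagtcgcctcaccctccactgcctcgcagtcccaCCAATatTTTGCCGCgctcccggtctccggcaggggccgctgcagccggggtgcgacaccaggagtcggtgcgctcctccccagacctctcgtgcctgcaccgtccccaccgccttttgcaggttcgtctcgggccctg

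The genes that work with these enzymes are shown in the plot of partner genes. Their counts are to be read against the shares of all genes tested, 28.4% higher and 11.8% lower as deposited, and 15.7% higher and 17.5% lower with median-of-ratios factors. Among subunits of the Hdac corepressors, 11 of 16 genes were higher and none was lower (8 higher and 2 lower with median-of-ratios factors). Chd3, a helicase of the NuRD complex, rose from 12.2 ± 0.540 to 18.8 ± 1.04 FPKM (log2 change 0.62, adjusted p = 3.39e-06). Mta2, another NuRD subunit, had a log2 change of 0.26 (adjusted p = 6.20e-05), and the NCoR subunit Gps2 had the highest p of the list (0.01, adjusted p = 0.874).

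Among PRC2 subunits, 5 of 10 were higher and none was lower (2 and 1 with median-of-ratios factors, near the shares of 15.7% and 17.5% over all genes). The accessory subunits Mtf2 (log2 change 0.34, adjusted p = 0.000133) and Jarid2 (0.32, adjusted p = 0.000588), which guide PRC2 to its targets, had the smallest p, and Epop (-0.06, adjusted p = 0.849) the largest. For DNA methylation readers and cofactors the counts were 4 higher and 1 lower of 10, the lower count being near the 11.8% of all genes. With median-of-ratios factors they were 2 and 2, near the 15.7% and 17.5% of all genes. Tdg, the glycosylase that excises the oxidized bases made by Tet enzymes, rose from 30.8 ± 3.17 to 47.3 ± 2.18 FPKM (log2 change 0.62, adjusted p = 1.77e-05). Uhrf2 had a log2 change of 0.24 (adjusted p = 0.00528) and Mbd4 of 0.05 (adjusted p = 0.714).

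**Figure D5:**
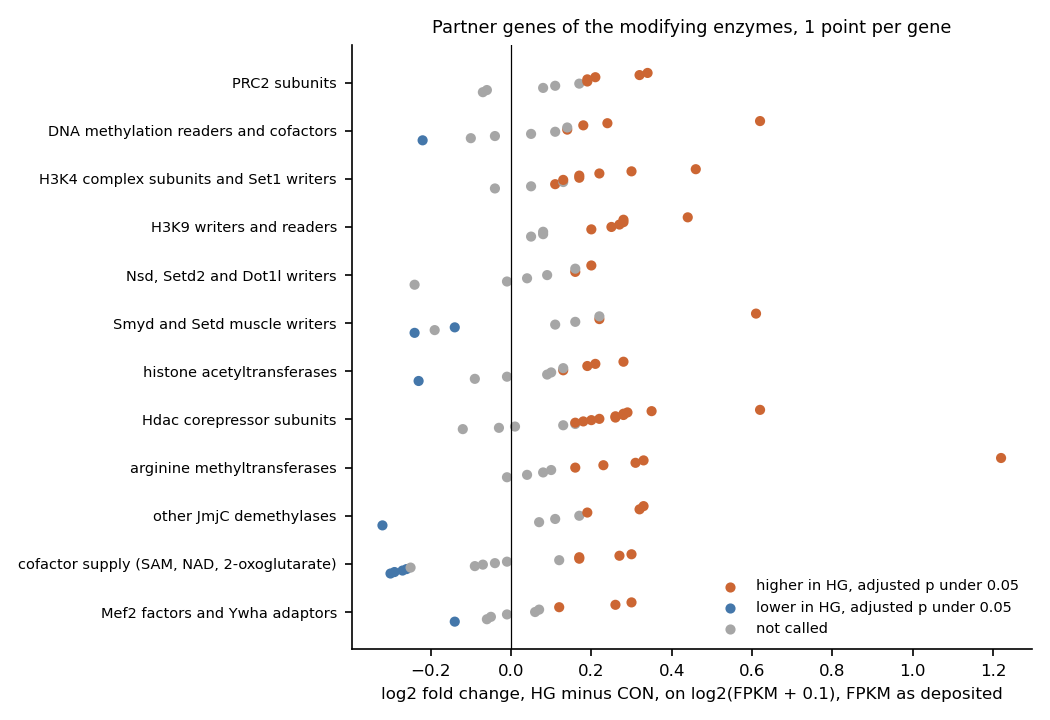
Log2 fold change (HG minus CON, on log2(FPKM + 0.1), as deposited) of each partner gene tested, 1 point per gene in each list. Jarid2 is in both the PRC2 list and the list of other JmjC proteins. Orange points were higher and blue points lower at an adjusted p under 0.05. Prmt8 (1.22) lies farthest right and Jmjd6 (-0.32) farthest left.

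Of the other writers, 7 of 10 genes of the H3K4 complexes and Set1 writers were higher (3 higher and 1 lower with median-of-ratios factors), led by Setd1a (log2 change 0.46, adjusted p = 0.000190) and Hcfc1 (0.30, adjusted p = 0.000779), with Setd1b last (0.05, adjusted p = 0.497). Of 9 H3K9 writers and readers tested, 6 were higher (5 with median-of-ratios factors). Among them were Trim28 (0.28, adjusted p = 3.58e-05) and the heterochromatin protein Cbx3 (0.27, adjusted p = 0.000399), while Setdb2 was not called (0.05, adjusted p = 0.697). Among the H3K36 and H3K79 writers, 2 of 7 were higher, Nsd2 (0.20, adjusted p = 0.00466) and Nsd1 (0.16, adjusted p = 0.0309), and with median-of-ratios factors none was higher and 1 was lower. That count is near the 28.4% of all genes that were higher. The H3K79 writer Dot1l was at -0.01 (adjusted p = 0.963).

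Arginine methyltransferases were higher for 5 of 9 genes (3 with median-of-ratios factors). Prmt8 went from 0.704 ± 0.298 to 1.69 ± 0.183 FPKM and was the only partner gene past 2-fold (log2 change 1.22, adjusted p = 0.000666). Prmt1, the main asymmetric arginine methyltransferase, had a log2 change of 0.33 (adjusted p = 8.53e-05), and Prmt2 of -0.01 (adjusted p = 0.957). Histone acetyltransferases were higher for 4 and lower for 1 of 10, the lower count being near the 11.8% of all genes. With median-of-ratios factors the counts were 1 and 1, below the 15.7% and 17.5% of all genes. Kat5 rose (0.28, adjusted p = 0.00100), Kat2b fell (-0.23, adjusted p = 0.00208), and Crebbp was at -0.01 (adjusted p = 0.938).

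Among the Smyd and Setd muscle writers, 2 of 8 were higher and 2 lower (1 and 3 with median-of-ratios factors). The higher count as deposited is near the 28.4% of all genes. Smyd1, a methyltransferase needed for heart muscle development, fell from 83.8 ± 3.68 to 70.9 ± 3.23 FPKM (log2 change -0.24, adjusted p = 0.000770). Smyd3 rose from 1.19 ± 0.0584 to 1.88 ± 0.269 FPKM (0.61, adjusted p = 0.000895), and Setd7 was not called (0.16, adjusted p = 0.129). Of the other JmjC proteins, 3 of 7 were higher and 1 lower (2 and 1 with median-of-ratios factors), with Jmjd6 at -0.32 (adjusted p = 0.000418) and Hr at 0.07 (adjusted p = 0.829). Jarid2, already counted among the PRC2 subunits, is also among the higher genes of this list.

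Genes that supply S-adenosylmethionine, NAD and alpha-ketoglutarate were higher for 4 and lower for 4 of 14 (2 and 7 with median-of-ratios factors), and the higher count is near the 28.4% of all genes. The mitochondrial isocitrate dehydrogenases Idh3a (155 ± 3.65 to 128 ± 5.73 FPKM, log2 change -0.29, adjusted p = 9.44e-05) and Idh2 (-0.27, adjusted p = 0.000499) fell. These are named because they had the smallest adjusted p of the list, and the 4 higher genes are not named. Of the Mef2 factors and 14-3-3 adaptors that class IIa enzymes bind, 3 of 9 were higher and 1 lower (2 and 2 with median-of-ratios factors). The counts as deposited are near the 28.4% higher and 11.8% lower among all genes. Ywhaz (0.30, adjusted p = 1.07e-05) and Ywhaq (0.26, adjusted p = 0.000160), both 14-3-3 adaptors, were higher, and Mef2a was at -0.01 (adjusted p = 0.867).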

How the data were processed

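Total RNA of 10 fetal heart samples was made into stranded mRNA libraries. The submitters' processing notes name fastp, HISAT2, HTSeq, R 3.2.0 and the build mRatBN7.2, and the strand setting of the counting is not given in the sources used here. The methods speak of RNA pooled from the 10 samples, although the libraries carry separate values. The authors deposited 1 table of FPKM values for 18025 genes, scaled by gene length and library total.

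From these values, log2(FPKM + 0.1) was tested with limma 3.58.1 (R 4.3.3, with an intensity trend and Benjamini-Hochberg adjustment over the 14542 genes whose mean reached 0.1 FPKM). Fold changes on this scale understate those of low genes. Low values were whole multiples of 1 read (tolerance 0.03 reads) for 100.0% of genes, which gave the depth and a limma-voom alternative that called 5960 genes, beside 5836 in limma on FPKM. Ratios within a library were compared by exact permutation. The steps were tested on simulated data.

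The genes, roles, partner lists and marker lists for proliferation, cardiomyocytes and red cell precursors were chosen with earlier results of these data known. Library values were given for every Dnmt, Tet and Ezh gene and for the 2 genes with the smallest adjusted p in each other role, and each partner list gave its 2 smallest and 1 largest, except for 1 gene that is not reported here. Hdac8, Hdac1, Ezh2 and Sirt5 windows were chosen for printing after their values were seen. No per-sample column was left unused.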

Additional observations from a re-analysis of the deposited data

Results flagged for a closer look

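In groups of 5 libraries, a library was flagged when its gap to the nearest other exceeded 0.71 of the range of the group. Of 110 groups looked at (49 genes and 6 ratios in CON and in HG), 6 were flagged, and chance flags about 1 in 20. Hdac11 in CON replicate 1 was at 4.78 FPKM, with the next library at 4.18. Hdac1l in CON replicate 2 was at 2.90 FPKM, with the next at 1.83. Kdm4a in CON replicate 4 was at 13.5 FPKM, with the next at 12.8. Kdm3a in CON replicate 3 was at 10.6 FPKM, below the next at 11.9. HG replicate 5 was the highest HG library for Kdm3a (17.0 FPKM, next 15.1) and for Kdm2a (22.1 FPKM, next 19.9). The calls of Kdm4a, Kdm3a and Kdm2a were kept in every fit that left out a single library.

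Dnmt3l, under the level filter and outside the 49 genes, had 22 reads over the 5 HG libraries (8, 3, 4, 4 and 3) and 0 reads in the 5 CON libraries. Per read on genes, this was 7.39-fold higher in HG when 3 reads were set as a floor over the CON group. The floor covers counting error in CON only and leaves out the error on the HG reads, so 7.39 is not a lower bound. The gene was singled out after its values were seen. The values were 0.247, 0.0964, 0.136, 0.134 and 0.106 FPKM in HG. No test was made of this gene in the main fit.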

How the results depend on the processing

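Over 22 alternatives, 11 of the 20 called genes kept their call in each (Dnmt1, Hdac1, Hdac2, Hdac5, Hdac8, Kdm1a, Kdm3a, Kdm3b, Kdm4a, Kdm5b and Sirt5). Scaling had the largest effect on the counts: with median-of-ratios factors 9 genes were higher and 6 lower, and after quantile normalization 10 and 5. Among all genes, 70.7% of calls were higher as deposited, and these shares were 47.4% and 53.0% under those scalings. Without each library in turn, 14 to 19 genes were higher and 2 to 3 lower, and the median log2 fold change was 0.11 to 0.17. No gene passed the 2-fold threshold under any alternative. Over all settings the adjusted p ranged from 2.41e-07 to 0.000152 for Hdac1, 2.56e-05 to 0.00420 for Sirt5, 2.00e-05 to 0.00128 for Kdm5b, 4.75e-05 to 0.00290 for Dnmt1, 9.34e-05 to 0.00403 for Hdac8, 0.00176 to 0.0456 for Hdac5, 0.00325 to 0.119 for Ezh2 and 0.00970 to 0.180 for Ezh1. No called gene changed direction, and 8 genes without a call changed sign under some alternative.

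The numbers of the libraries did not pair them (correlations of -0.126 to 0.108 between deviations of same-numbered libraries, and none of the libraries correlated best with its own number). With the replicate number as a block, 14 genes were higher and 2 lower. In the block of the ratios, whose smallest p is 0.0625 before adjustment, the Ezh2 to Ezh1 difference of 0.36, the class IIa to class I difference of -0.40 and the sirtuin difference of -0.29 each had an adjusted p of 0.125, so the test could not pass. The sirtuin difference was -0.16 (adjusted p = 0.0952) with the mean of log2 values, which gives Sirt5 less weight. Without each library in turn these 3 differences were 0.33 to 0.41, -0.43 to -0.36 and -0.31 to -0.25, with an adjusted p of at most 0.0317. Depth limits Kdm4d, Sirt4, Hdac1l and Dnmt3l, which have under 100 reads in some library.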

Other observations

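Markers of other cell types of the heart were looked at beside these enzymes. Their counts are to be read against 28.4% higher and 11.8% lower among all genes tested. The higher counts of endothelial and fibroblast markers are near the 28.4%, and the lower count of fibroblast markers is above the 11.8%. Endothelial markers were higher for 2 of 6 genes, with sums of 248 to 270 FPKM in CON and 257 to 279 FPKM in HG. Fibroblast markers were higher for 2 and lower for 3 of 7 (sums 1216 to 1458 and 1128 to 1317 FPKM), and smooth muscle and pericyte markers were higher for 1 and lower for 2 of 5 (212 to 241 and 242 to 330 FPKM). Macrophage markers were higher for 3 and lower for 1 of 6 (24.5 to 30.8 and 27.6 to 36.4 FPKM), epicardial markers were lower for 1 of 4, and of the 2 neuron and glia markers tested 1 was higher (4.13 to 5.11 and 3.91 to 6.37 FPKM). With median-of-ratios factors, proliferation markers were higher for 9 of 15 genes and cardiomyocyte markers lower for 7 of 8. The higher and lower counts were then 1 and 1 of 6 endothelial and 2 and 5 of 7 fibroblast markers. They were 1 and 2 of 5 smooth muscle and pericyte markers and 2 and 1 of 6 macrophage markers. For epicardial markers they were 0 and 1 of 4, and for neuron and glia markers 0 and 0 of 2. Of all genes tested, 15.7% were higher and 17.5% lower under that scaling.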
